A study of Mus musculus with 12 samples.

Results

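The genes described here encode the proteins of the mitochondrial ribosome in mouse myeloid-derived suppressor cells (MDSCs). They were chosen as every symbol of the deposited count table made of Mrpl or Mrps, a number and at most 1 further letter, which gave 78 of the 35303 symbols. By subunit, 51 of the 78 encode proteins of the large subunit and 26 encode proteins of the small subunit. The remaining member, Mrps36, carries the family name but is known as a component of the 2-oxoglutarate dehydrogenase complex.

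The 3 groups of 4 libraries each were compared by bulk RNA sequencing after enrichment of polyadenylated RNA. MDSC denotes the unmodified cells, MDSC-NP-Blk the cells carrying blank PLGA (poly(lactide-co-glycolide)) nanoparticles on their surface, and CITED the cells carrying nanoparticles loaded with rapamycin, an inhibitor of the kinase mTOR. All 12 libraries are labelled wild type and IL6, and no group carried a genetic change. Per the study's methods, bone marrow cells of female C57BL/6 mice aged 6 to 10 weeks were grown with IL-6 and GM-CSF at 40 ng/ml each until day 3, the CD11b+Gr1+ cells were isolated, and nanoparticles were attached by reaction between azido groups on the cells and a cyclooctyne on the particles. The cells were then kept for 24 hours with IL-6 at 40 ng/ml before RNA was taken. The sources used here do not say whether unmodified cells also received the azido label, so particles and label cannot be told apart in comparisons with MDSC. The labels and the study call the 4 libraries of a group biological replicates, and whether these were separate mice or separate cultures is not given in the sources used here. CNS is given as the tissue in the labels, although the methods name only bone marrow as the source.

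The mitochondrial ribosome translates the few mRNAs encoded by mitochondrial DNA, all of which specify subunits of the respiratory chain and ATP synthase. Its RNA is made inside the organelle, whereas its proteins are encoded in the nucleus, translated in the cytosol and imported. Some of them descend from bacterial ribosomal proteins and others were added in the mitochondrial lineage. Assembly needs both sets, together with GTPases, helicases and RNA-modifying enzymes. Rapamycin is best known in this setting for lowering the translation of mRNAs for cytosolic and mitochondrial ribosomal components, which a measurement of RNA level does not record.

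Position and promoters of the members were read from the annotation. The members lie on 17 chromosomes, with the most (11) on chromosome 11. Per the GENCODE annotation of GRCm39, 29 of 78 (37.2%) start within 1000 bases of a protein-coding gene on the opposite strand, a head-to-head arrangement found for 10.2% of the 21747 protein-coding genes annotated. The RefSeq promoter table (GRCm38.p6, 250 bases before to 50 bases after each start) held 75 windows for 69 of the 78 members. The ETS and GABP motif (CCGGAAG, searched on both strands as were all motifs) was present in 34.7% of member windows and in 8.86% of the 32851 windows of the table. The NRF1 motif (GCGC and TGCGC with any base between) was present in 17.3% of member windows and 4.6% of all windows, and the YY1 motif (ATGGCGGC) in 16% and 2.24%. The E box (CACGTG) was found in 9.33% of member windows against 7.15% of all, and the CCAAT box in 40% against 37.4%. A match describes the letters of a window and not a bound site.

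The windows of a pair of members that rose with particles (Mrpl52 and Mrpl43) and of a pair that fell (Mrps22 and Mrpl42) are printed below 5′ to 3′, because the ETS and GABP letters stood in windows of members that moved in opposite directions. Capitals mark every match to the 5 motifs.
Mrpl52, chr14:54426659-54426958, plus strand: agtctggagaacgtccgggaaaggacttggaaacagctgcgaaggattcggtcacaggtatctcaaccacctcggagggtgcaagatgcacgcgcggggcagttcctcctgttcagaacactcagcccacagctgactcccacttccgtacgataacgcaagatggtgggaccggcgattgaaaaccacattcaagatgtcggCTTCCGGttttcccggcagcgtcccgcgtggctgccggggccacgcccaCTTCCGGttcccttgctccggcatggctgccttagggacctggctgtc
Mrpl43, chr19:45006393-45006692, minus strand: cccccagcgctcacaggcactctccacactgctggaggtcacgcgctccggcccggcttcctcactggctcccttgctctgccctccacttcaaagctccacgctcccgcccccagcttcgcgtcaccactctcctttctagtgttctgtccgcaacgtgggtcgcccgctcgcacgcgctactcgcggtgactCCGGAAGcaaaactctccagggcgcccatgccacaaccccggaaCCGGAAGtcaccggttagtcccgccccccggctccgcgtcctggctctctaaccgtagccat
Mrps22, chr9:98601630-98601929, minus strand: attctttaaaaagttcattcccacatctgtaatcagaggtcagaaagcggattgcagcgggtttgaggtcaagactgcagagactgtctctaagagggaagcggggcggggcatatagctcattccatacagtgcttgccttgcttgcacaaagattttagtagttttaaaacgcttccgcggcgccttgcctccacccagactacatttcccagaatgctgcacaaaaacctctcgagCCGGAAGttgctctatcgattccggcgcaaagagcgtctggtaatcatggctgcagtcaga
Mrpl42, chr10:95501900-95502199, minus strand: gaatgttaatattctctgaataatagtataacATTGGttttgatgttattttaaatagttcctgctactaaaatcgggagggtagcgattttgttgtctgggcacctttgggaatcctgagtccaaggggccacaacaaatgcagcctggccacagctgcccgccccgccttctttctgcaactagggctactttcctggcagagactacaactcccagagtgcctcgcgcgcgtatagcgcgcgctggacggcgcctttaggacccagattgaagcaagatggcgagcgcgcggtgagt
Counting from the annotated start as position 1, with no position 0, the leftmost base of the ETS and GABP match stood at -47 and 3 in Mrpl52, at -56 and -12 in Mrpl43 and at -11 in Mrps22. The window of Mrpl42 held none and had only a CCAAT box, read on the opposite strand, at -218.

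The 12 libraries held between 20604809 and 37855478 counts. Every one of the 78 members passed the filter of at least 2 counts over all libraries, as did 17676 of all symbols, and together they took 0.158% to 0.191% of the counts of a library. The markers of the labelled cells were present. All 12 genes of a list for MDSC identity were tested, and their summed normalized counts (counts scaled by trimmed-mean factors to the mean depth of the libraries) ran from 684559 to 771378 (MDSC), from 934916 to 977083 (MDSC-NP-Blk) and from 735468 to 827039 (CITED). This list moved with the groups: 11 of its 12 genes were called higher in MDSC-NP-Blk against MDSC, and 6 were called higher and 3 lower in CITED against MDSC. Markers of T and NK cells (6 of 7 tested, summed level 31 to 66.9) and of erythroid cells (5 of 5, 38.9 to 67.4) were near 0, and each of these lists had 1 gene at 0 throughout MDSC and throughout CITED. Other lists also moved with the groups. The 6 markers of granulocyte-monocyte progenitors summed to 61566 to 67818 (MDSC), 32735 to 35392 (MDSC-NP-Blk) and 7791 to 8541 (CITED), and the 5 markers of B cells to 271 to 369, 175 to 251 and 71.5 to 100.3. The 5 markers of megakaryocytes ran the other way (4649 to 5206, 7001 to 7479.8 and 7583 to 8297), and those of mast cells and basophils were lowest in CITED (10158 to 11033, 11518 to 12709 and 6009 to 6638). No gene of these 4 lists was at 0 throughout a group. In bulk RNA fewer cells of a type and less RNA per cell cannot be told apart, and the part of these cell types in the differences below was not tested.

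The 4 MDSC-NP-Blk libraries did not form an even group. Between replicates 1 and 4, and between replicates 2 and 3, the counts differed with a chi-square per degree of freedom of 5.54 and 5.77, whereas the 4 pairs across ranged from 15.0 to 20.8. Within MDSC and within CITED all pairs ranged from 4.63 to 9.26. The members followed this division: 47 of 78 (60.3%) were higher in both replicates 1 and 4 than in both replicates 2 and 3, and 1 was lower, against 27.1% and 29.7% of the 10556 genes with a mean normalized count above 50. Replicates 1 and 4 also leaned towards short transcripts, with Spearman correlations across those genes between a library's deviation from the mean and transcript length of -0.42 and -0.24, against -0.047 and 0.092 in replicates 2 and 3. In MDSC these correlations were 0.22 to 0.35 and in CITED -0.34 to -0.19. Nothing in the labels separates the 2 pairs, so results that use MDSC-NP-Blk are also given with each pair alone.

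Levels of the members spanned a wide range. In MDSC the median was 313 normalized counts per kilobase of transcript, with 315 for the large subunit and 304 for the small subunit. The order of levels per kilobase began with Mrpl33 at 2486 and Mrps21 at 1939, both homologs of small bacterial ribosomal proteins, followed at a distance by Mrpl18 at 697, Mrpl20 at 693 and Mrps24 at 687. Mrpl18, Mrpl20 and Mrps24 lay within 2% of each other, less than the spread between libraries. The order ended with Mrpl55 at 74.2, Mrps2 at 64.9, Mrpl47 at 46, Mrps28 at 44.1 and Mrpl23 at 41.1.

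Mrpl23 was the only member with fewer than 100 counts in every library (17 to 50). It shares 77.0% of its 31-base words with the pseudogene Mrpl23-ps1, which was assigned 396 to 759 counts, so the split of reads between this pair is uncertain. Mrpl23 itself had a log2 fold change of 0.43, SE 0.38, adjusted p = 0.38 between CITED and MDSC. The counts assigned to Mrpl23-ps1 were called higher in that comparison, with 0.67, SE 0.092 and an adjusted p of 1.6e-07. Of the 78 members, 45 shared at least 10% of their 31-base words with another gene and 34 had at least 10% of their exon bases under another gene, and whether the libraries or the counting kept strand is not stated. These members are uncertain to that extent. Among those whose changes are described below, the shared share of words was highest for Mrps18c (78.6%), Mrps34 (71.3%), Mrpl24 (69.2%), Mrps18a (64.8%), Mrps18b (64.5%) and Mrpl27 (55.5%). It was 21.3% for Mrpl52, 33.0% for Mrpl43, 11.8% for Mrpl30, 14.4% for Mrps22, 20.7% for Mrps27, 24.4% for Mrpl42, 41.3% for Mrpl19, 22.2% for Mrps10, 18.9% for Mrps15, 18.6% for Mrps30, 16.6% for Mrpl45 and 15.4% for Mrps5.

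Replicates agreed closely for most members. The coefficient of variation over the 4 libraries had a median of 8.13% (MDSC), 10.7% (MDSC-NP-Blk) and 8.13% (CITED), and Mrpl23 was the most variable member in all groups (32.1%, 34.1% and 38.7%). The heat map of the members by library shows the blocks of genes that set the groups apart and the division within MDSC-NP-Blk.

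**Figure D1:**
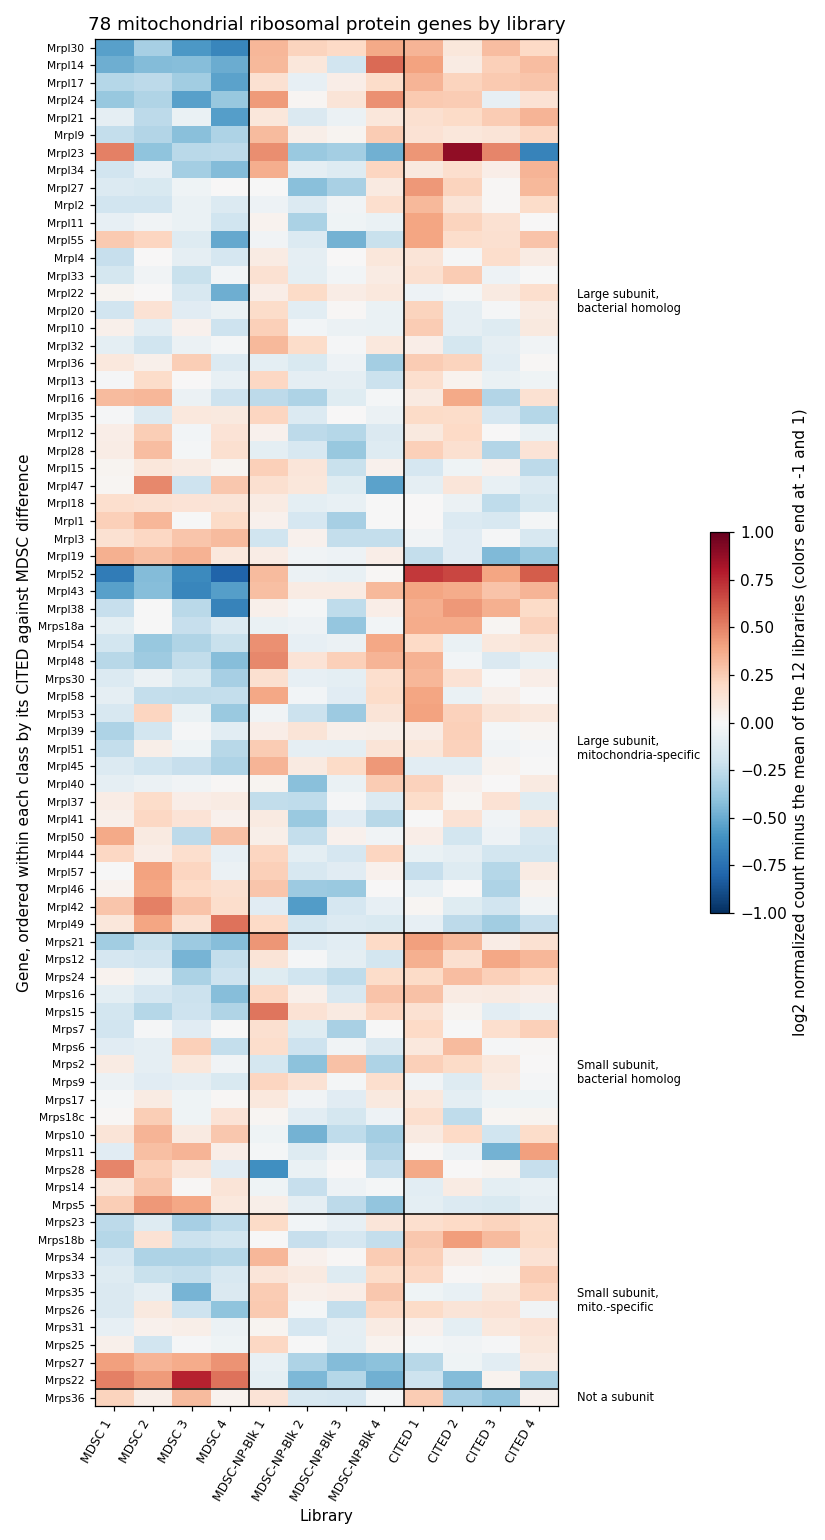
Level of each of the 78 members (rows, grouped by subunit and origin) in each of the 12 libraries (columns), as log2 normalized count minus the gene's mean over the libraries. The top rows of each block are lower in MDSC than in CITED and the bottom rows higher, and the 4 MDSC-NP-Blk columns split into replicates 1 and 4 against replicates 2 and 3.

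The first comparison asks how cells with rapamycin particles differed from unmodified cells. In CITED, 33 of the 78 members (42.3%) rose, 11 (14.1%) fell and 34 were not called (edgeR quasi-likelihood test, adjusted p below 0.05 over all genes tested). Over all genes tested 22.2% were called higher and 22.2% lower, and over the 10556 genes with a mean normalized count above 50 the shares were 35.6% and 32.3%. Changes were small: the median log2 fold change of the members was 0.16 against -0.052 for all genes tested, and their range was -0.79 to 1.24. Only Mrpl52 passed an absolute log2 fold change of 1, where 9.99% of all genes tested did. The libraries of the groups did not overlap for 29 members that were higher in CITED and 9 that were lower, with 21.2% of all genes tested in each direction.

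By class, 21 of 51 large-subunit members rose (41.2%) and 8 fell (15.7%), with a median of 0.19. Of 26 small-subunit members 12 rose (46.2%) and 3 fell (11.5%), with a median of 0.13. Of the 46 homologs of bacterial proteins 18 rose (39.1%) and 5 fell (10.9%). Of the 31 mitochondria-specific proteins 15 rose (48.4%) and 6 fell (19.4%). Shares called higher and lower were 22.2% each over all genes tested. They were 35.6% and 32.3% over genes with a mean normalized count above 50. The class counts are without the correction for transcript length given below. Mrps18a and Mrps18b, which both rose, were counted as mitochondria-specific although they are related to the same bacterial protein as Mrps18c. The difference between these classes was not tested. Mrps36 had a log2 fold change of -0.25 (adjusted p = 0.097) and was called in no comparison.

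Mrpl52, a mitochondria-specific protein of the large subunit (GRCm39 chr14:54664360-54668593), showed the largest difference. Its normalized counts were 489, 590.0, 511 and 456 (MDSC), 994, 765, 758 and 802 (MDSC-NP-Blk) and 1300.4, 1264, 1046 and 1213 (CITED). The 3 groups did not overlap and stood in the order MDSC, MDSC-NP-Blk, CITED. The log2 fold change of CITED against MDSC was 1.24, SE 0.091, adjusted p = 1.1e-13.

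Mrpl43, also mitochondria-specific, had 898, 975, 833 and 892 (MDSC), 1614, 1387, 1388 and 1635 (MDSC-NP-Blk) and 1718, 1691, 1591 and 1656 (CITED) normalized counts. All MDSC libraries lay below all others, while MDSC-NP-Blk and CITED overlapped, and the log2 fold change of CITED against MDSC was 0.89, SE 0.07, adjusted p = 5.3e-13. The gene overlaps Twnk, which encodes the helicase of mitochondrial DNA, over 27.5% of its exon bases. Twnk had a log2 fold change of 0.18 (adjusted p = 0.28), which was not called.

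Mrpl30, a homolog of a bacterial large-subunit protein, had 749, 865, 731 and 693 (MDSC), 1374, 1272, 1253 and 1414 (MDSC-NP-Blk) and 1379.5, 1178, 1352 and 1249 (CITED) normalized counts, with MDSC again apart and the particle groups overlapping. It rose by 0.76, SE 0.075, adjusted p = 1.3e-10 in CITED on the log2 scale. Mrpl14, whose bacterial counterpart sits at the interface of the subunits, had 573, 592, 598 and 569 (MDSC), 1002, 865, 702 and 1186 (MDSC-NP-Blk) and 1058, 847, 944 and 992 (CITED) normalized counts, and its MDSC-NP-Blk libraries spread over the whole range of CITED and beyond. Its log2 fold change was 0.72, SE 0.1, adjusted p = 2.7e-07.

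Mrpl17 and Mrpl38 complete the 6 largest rises. Mrpl17, a homolog of a bacterial protein near the exit of the nascent chain, went from 826 ± 67.4 (SD, n = 4) in MDSC to 1279 ± 42.4 in CITED, a log2 fold change of 0.63. Mrpl38, a mitochondria-specific large-subunit protein, went from 275 ± 50.1 to 421 ± 29.4 normalized counts, a log2 fold change of 0.61. The call for Mrpl38 was lost when differences were corrected for transcript length and GC content (log2 fold change 0.13).

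Mrps22, a mitochondria-specific protein of the small subunit (GRCm39 chr9:98470779-98483732) whose human counterpart is mutated in a mitochondrial disease, showed the largest fall. Its normalized counts were 164, 156, 197 and 169 (MDSC), 108, 84.8, 94.9 and 83 (MDSC-NP-Blk) and 100.3, 85.6, 119 and 92.9 (CITED). MDSC stood above both particle groups without overlap, and the log2 fold change of CITED against MDSC was -0.79, SE 0.16, adjusted p = 0.0001. It is the least abundant of the members that changed most, so the SE is wide. Mrps22 shares 16.4% of its exon bases with Copb2, which also fell (-0.18, adjusted p = 0.0054). The mean normalized count was 3413 for Copb2 and 121 for Mrps22, and the separate part of each gene in the counts was not tested.

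Mrpl19, a homolog of a bacterial large-subunit protein at the interface of the subunits, had 815, 786, 811 and 686 (MDSC), 672, 621, 616 and 669 (MDSC-NP-Blk) and 540.5, 589, 468 and 492 (CITED) normalized counts. The 3 groups stood apart in descending order from MDSC to CITED, with a log2 fold change of -0.57, SE 0.084, adjusted p = 5.2e-07. It shares 39.2% of its exon bases with Gcfc2, which also fell (-0.76, adjusted p = 7e-04), and the separate part of each gene in the counts was not tested.

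The other 4 of the 6 largest falls were smaller. Mrpl49 went from 408 ± 57.8 to 281 ± 21.9 normalized counts (-0.54 on the log2 scale) and Mrpl42, like Mrpl49 mitochondria-specific, from 514 ± 50.9 to 391 ± 25.1 (-0.39). Mrps27, a mitochondria-specific small-subunit protein with pentatricopeptide repeats, went from 334 ± 11.4 to 240.5 ± 24.7 (-0.47). Mrps5, a homolog of a bacterial protein of the small subunit, went from 476 ± 48.2 to 356 ± 7.46 (-0.42). For all 4 the lowest MDSC library lay above the highest CITED library. Other genes, among them Ptcd2, cover 26.1% of the exon bases of Mrps27, and Ptcd2 also fell (-0.23, adjusted p = 0.029). Mrpl49 shares 5.3% of its exon bases with Syvn1, which rose (0.32, adjusted p = 0.0014).

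**Figure D2:**
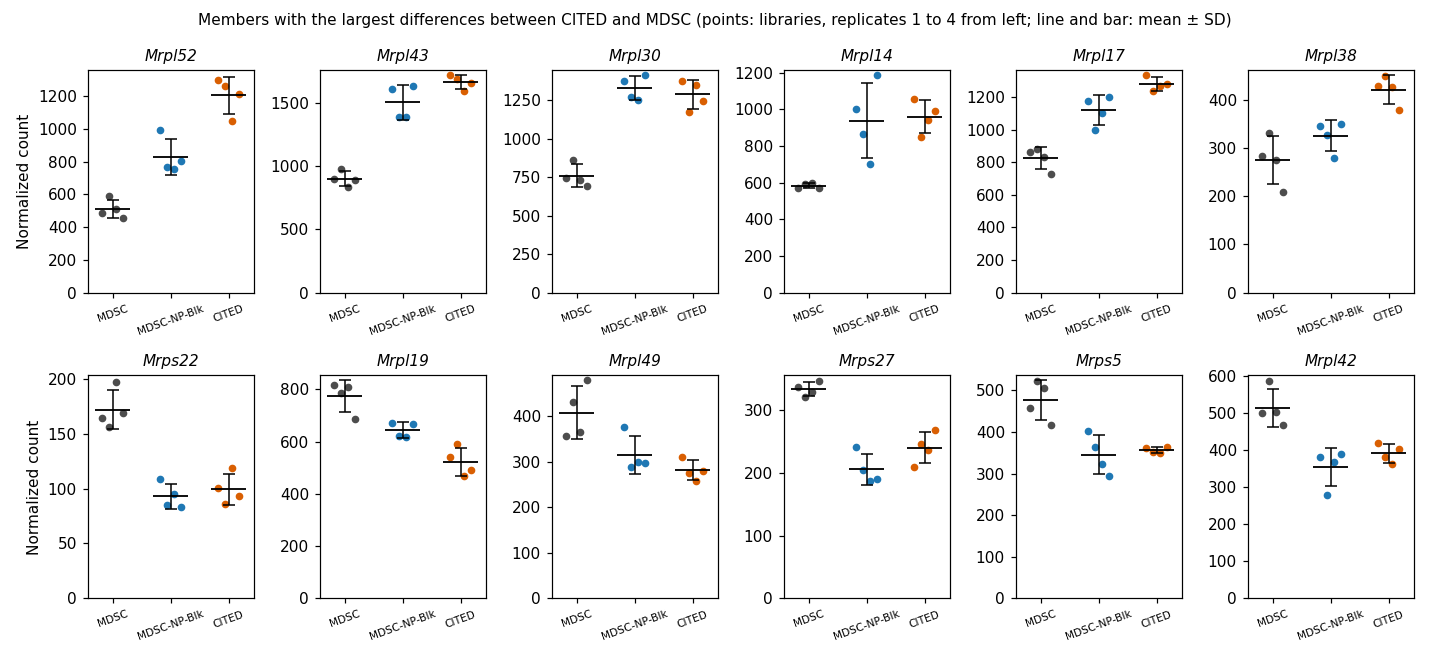
Normalized counts (vertical axis, from 0) of the 6 members that rose most and the 6 that fell most in CITED against MDSC. Points are libraries and the line and bar give the mean ± SD of 4 libraries. Mrpl52 reaches its highest counts in CITED, whereas the MDSC-NP-Blk points of Mrpl30, Mrpl14 and Mrps22 overlap those of CITED.

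These counts depend on how transcript length is treated. Across the members the log2 fold change of CITED against MDSC had a Spearman correlation with transcript length of -0.23, and across 10543 genes of -0.31, a description without a test since genes are not independent. The 26 shortest members had a median log2 fold change of 0.25 and the 26 longest one of 0.048. With a smooth length trend over all genes removed from each library, 17 members were called higher and 24 lower, and the median became -0.022. Over all genes tested 21% were then called higher and 23.1% lower. Of the 33 rises 16 were kept and of the 11 falls 10, while the rise of Mrpl33 (0.21, adjusted p = 0.019) became a called fall (-0.17, adjusted p = 0.027). With GC content corrected as well, the rises of Mrpl4 (0.21) and Mrps34 (0.37) became called falls (-0.21, adjusted p = 0.011, and -0.22, adjusted p = 0.022). Over 12 alternatives of scaling, filter, tool, block and correction, the rises of Mrpl9, Mrpl14, Mrpl17, Mrpl24, Mrpl30, Mrpl43 and Mrpl52 were called in all, as were the falls of Mrpl3, Mrpl18, Mrpl19, Mrpl42, Mrpl49, Mrps5, Mrps22 and Mrps27. With each library left out in turn, 24 of the 33 rises and 8 of the 11 falls were called every time.

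The second comparison asks how blank particles alone differed from unmodified cells. It uses the same MDSC libraries. In MDSC-NP-Blk 22 members rose (28.2%) and 14 fell (17.9%), where 19.9% and 18.6% of all genes tested were called, and 42 members were not called. Over the genes with a mean normalized count above 50 the shares were 32.1% and 28.2%, above those of the members in both directions. The median log2 fold change was -0.0011 against -0.027 for all genes tested. No member passed a log2 fold change of 1, as 4.74% of all genes tested did. At an unadjusted p below 0.05 and the same fold the count was also 0, and DESeq2 gave 0. With replicates 1 and 4 alone 26 members rose and 9 fell, where 19.2% and 18.7% of all genes tested were called. With replicates 2 and 3 alone 13 rose and 18 fell, where 17.9% and 15.9% were called. The balance also depended on the correction for transcript length. In this comparison the Spearman correlation of the log2 fold change with length was 0.0053 across the members, and -0.32 across 10543 genes. With the length correction 13 members rose and 30 fell (median -0.14), where 18.7% and 19.4% of all genes tested were called. Of the 22 rises 9 were called in all 12 alternatives, and of the 14 falls 11.

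Mrpl30 led the rises with a log2 fold change of 0.80, SE 0.075, adjusted p = 6.7e-11. Mrpl43 (0.74), Mrpl52 (0.69) and Mrpl14 (0.68) followed. Mrpl24, a homolog of a bacterial protein needed early in large-subunit assembly, had 1037, 1098, 924 and 1038 normalized counts in MDSC and 1814, 1368, 1476 and 1855 in MDSC-NP-Blk, with no overlap and a log2 fold change of 0.66. Mrpl24 shares 70.5% of its exon bases with Mettl25b. Its MDSC-NP-Blk replicates 1 and 4 lay above replicates 2 and 3. Mrpl48, mitochondria-specific, rose by 0.62 on the same scale, from 561 ± 31.7 to 868 ± 88.4 normalized counts.

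Mrps22 and Mrps27 led the falls with log2 fold changes of -0.89 (adjusted p = 2.2e-05) and -0.70 (adjusted p = 3.2e-06). Mrpl42 fell from 514 ± 50.9 to 355 ± 51 normalized counts (-0.54 on the log2 scale). Mrps10, a homolog of a bacterial small-subunit protein, had 381, 442, 370.3 and 421 normalized counts in MDSC and 338, 252, 292 and 275 in MDSC-NP-Blk, and the groups did not overlap. Its log2 fold change was -0.49, whereas in CITED against MDSC it was -0.13 (adjusted p = 0.33). Mrps5 (-0.46) and Mrpl3 (-0.39), a homolog of a bacterial protein close to the peptidyl transferase center, completed the 6.

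The third comparison asks what rapamycin-loaded particles added to blank ones. In CITED against MDSC-NP-Blk 11 members rose (14.1%) and 4 fell (5.13%), where 10.5% and 11.4% of all genes tested were called, and 63 members were not called. Over the genes with a mean normalized count above 50 the shares were 16.9% and 18%, again above those of the members. The median log2 fold change was 0.068 against 0 for all genes tested, and the range was -0.31 to 0.54. None of the members passed a log2 fold change of 1, against 2.65% of all genes tested, and none did so at an unadjusted p below 0.05 or with DESeq2. The result turned on which MDSC-NP-Blk libraries were used: against replicates 1 and 4 alone 3 members rose and 7 fell (9.58% and 10.3% of all genes tested), and against replicates 2 and 3 alone 23 rose and 0 fell (11.4% and 12.3% of all genes tested). The count of 0 is from edgeR, with 0 also from DESeq2 and 2 at an unadjusted p below 0.05. Of the 11 rises 2 were kept against replicates 1 and 4 alone and 11 against replicates 2 and 3 alone, and of the 4 falls 4 and 0. Without MDSC-NP-Blk replicate 1 alone 17 rose and 2 fell. The Spearman correlation of the log2 fold change with transcript length was -0.38 across the members and -0.14 across 10543 genes. With the length correction 11 members rose and 4 fell, where 11.1% and 12.4% of all genes tested were called.

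Mrpl52 rose in this comparison too, with a log2 fold change of 0.54, SE 0.089, adjusted p = 1.4e-05 and no overlap between the libraries. Mrps18b had 438, 374, 391 and 373 normalized counts in MDSC-NP-Blk and 529, 586, 547 and 502 in CITED, with no overlap and a log2 fold change of 0.46, SE 0.097, adjusted p = 0.00042. Mrps18a had 366, 369.6, 293 and 375 and 495, 494, 389 and 449 (0.38 on the log2 scale). Other genes cover 67.5% of the exon bases of Mrps18b and 72.3% of those of Mrps18a, so the assignment of their reads is uncertain. With Mrps18c they form a family of paralogs of the same bacterial protein, of which Mrps18a is found in the large subunit and the others in the small one.

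Mrpl55, a homolog of a bacterial protein that bridges the subunits, had 172, 161, 127 and 151 normalized counts in MDSC-NP-Blk and 232, 199, 196 and 215 in CITED. Mrpl27, whose bacterial counterpart reaches into the peptidyl transferase center, had 444, 334, 355 and 474 and 602, 518, 448 and 559, which overlap. Their log2 fold changes were 0.46 and 0.41, and that of Mrpl38 was 0.37. Against MDSC-NP-Blk replicates 1 and 4 alone the calls of Mrpl55 (0.38), Mrpl27 (0.21), Mrpl38 (0.28) and Mrps18a (0.30) were lost. The call of Mrpl55 was also lost without MDSC-NP-Blk replicate 3 (0.39) or CITED replicate 1 (0.42), and that of Mrpl38 without MDSC-NP-Blk replicate 3 (0.31).

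The 4 falls were Mrpl45, Mrpl19, Mrpl48 and Mrps15. Mrpl45, which helps to anchor the ribosome at the inner membrane, had 1112, 1063, 1042 and 982 (MDSC), 1543, 1295, 1391 and 1650.1 (MDSC-NP-Blk) and 1132, 1136, 1249 and 1218 (CITED) normalized counts, so that MDSC-NP-Blk stood above both other groups. Its log2 fold change of CITED against MDSC-NP-Blk was -0.31, SE 0.073, adjusted p = 0.0015, and that of MDSC-NP-Blk against MDSC was 0.48. Mrps15, a homolog of a bacterial small-subunit protein, had 763, 713, 752 and 705 (MDSC), 1258, 959, 924 and 1006 (MDSC-NP-Blk) and 966, 883, 808 and 827 (CITED) normalized counts, with MDSC-NP-Blk replicate 1 above the rest.

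The log2 fold changes of CITED against MDSC-NP-Blk were -0.25 for Mrps15, -0.26 for Mrpl48 and -0.30 for Mrpl19. Against replicates 2 and 3 alone none of the 4 falls was called, with values of -0.18 for Mrpl45, -0.25 for Mrpl19, -0.15 for Mrpl48 and -0.11 for Mrps15. Without MDSC-NP-Blk replicate 1 the calls of Mrpl48 (-0.20) and Mrps15 (-0.14) were lost, and without MDSC-NP-Blk replicate 4 that of Mrpl48 (-0.25). Leaving out CITED replicate 2, 3 or 4 also ended the calls of Mrpl48 (-0.24, -0.21 and -0.23) and Mrps15 (-0.25, -0.21 and -0.22).

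**Figure D3:**
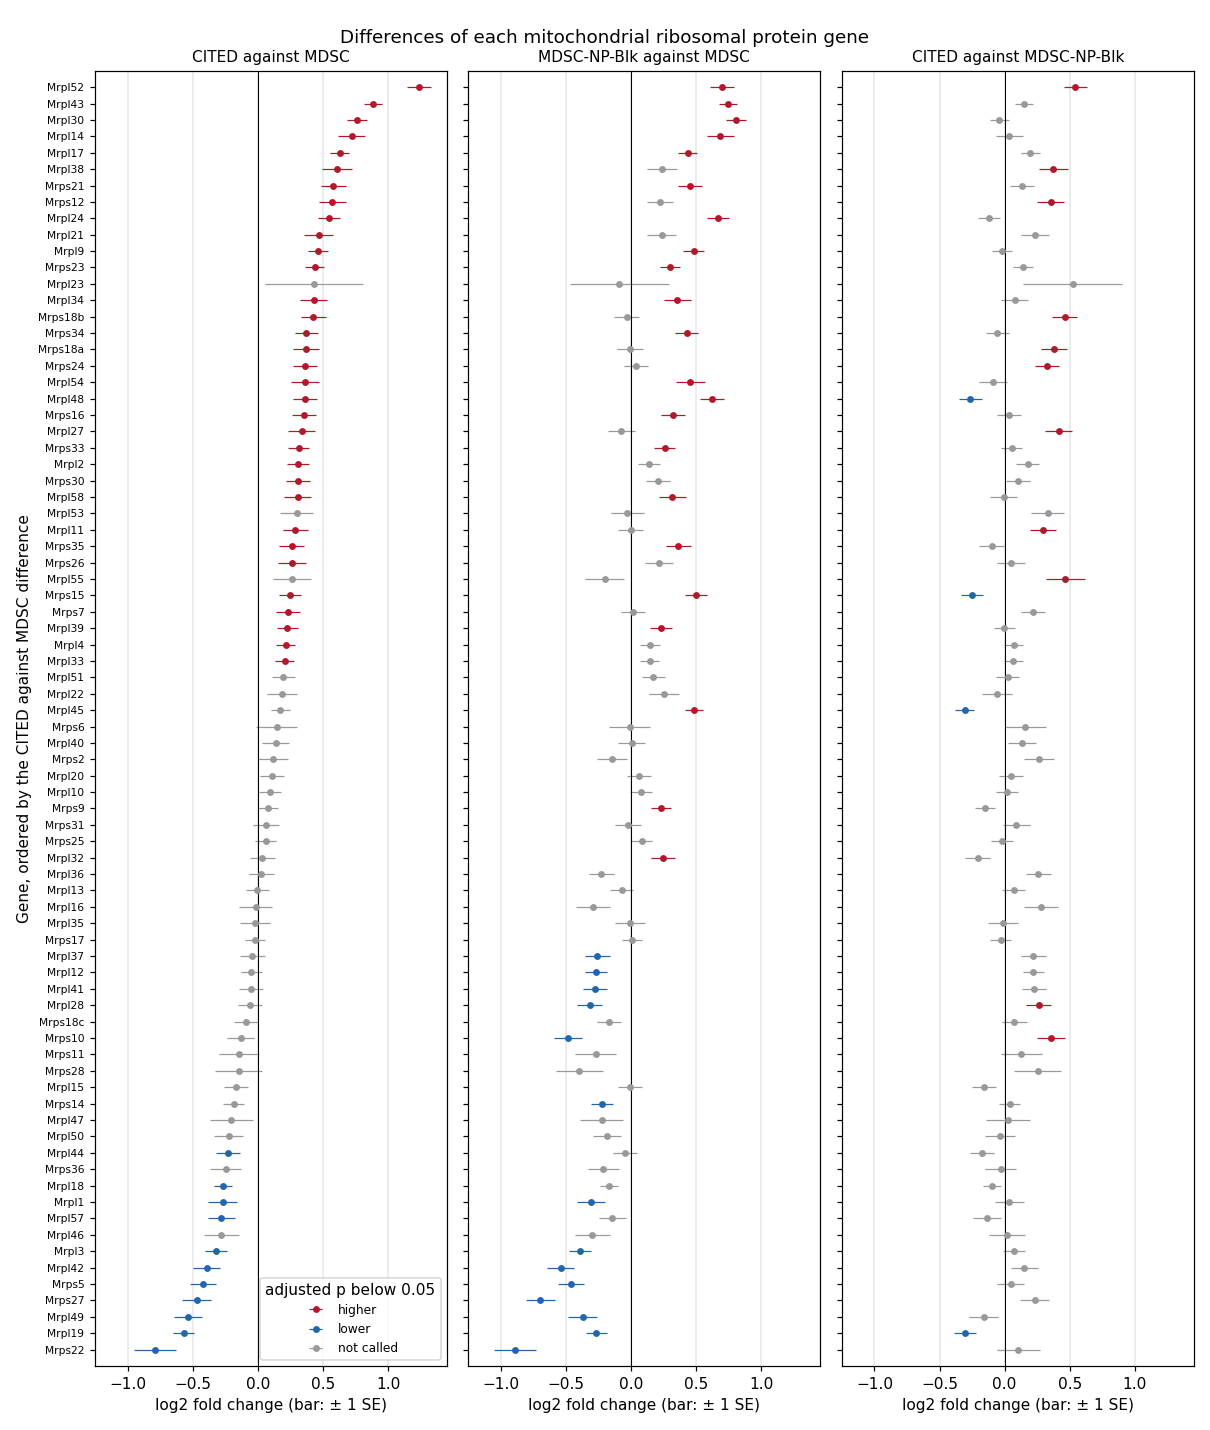
Log2 fold change ± 1 SE of each of the 78 members (rows, ordered by CITED against MDSC) in the 3 comparisons, with members past an adjusted p of 0.05 in red (higher) or blue (lower). Values run from -0.79 to 1.24 in CITED against MDSC, from -0.89 to 0.80 in MDSC-NP-Blk against MDSC and from -0.31 to 0.54 in CITED against MDSC-NP-Blk.

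Over the 3 comparisons, 24 members were never called, 17 were called once, 33 in 2 comparisons and 4 in all. The order of the group means was CITED, MDSC-NP-Blk, MDSC from highest to lowest for 25 members, and MDSC, CITED, MDSC-NP-Blk for 19. MDSC-NP-Blk had the highest mean for 15 members and CITED for 35. The same counts were not made over all genes tested, so those in this paragraph only describe the members.

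Members with a known role at a site of the ribosome are described next. Mrpl12, the stalk protein, had log2 fold changes of -0.049 (adjusted p = 0.67) in CITED against MDSC and -0.27 (adjusted p = 0.0079) in MDSC-NP-Blk against MDSC, and the latter call was lost with replicates 1 and 4 alone (-0.17). Mrpl11, at the base of the stalk, rose in CITED against MDSC by 0.29 (adjusted p = 0.015), a call that was lost with the length correction (0.23, adjusted p = 0.054) and without MDSC replicate 4 (0.26) or CITED replicate 1 (0.22), and it had -0.0048 (adjusted p = 0.99) in MDSC-NP-Blk against MDSC. In CITED against MDSC-NP-Blk it rose by 0.29 (adjusted p = 0.028), lost against replicates 1 and 4 alone (0.21), without MDSC-NP-Blk replicate 2 (0.22) and without CITED replicate 1 (0.22) or 2 (0.29). Mrpl58, a peptidyl-tRNA hydrolase built into the large subunit that releases stalled chains, rose by 0.31 and 0.31 in the comparisons of CITED and of MDSC-NP-Blk with MDSC, and lost these calls without CITED replicate 1 (0.20) and without MDSC-NP-Blk replicate 1 (0.22). Both were also lost with the length correction (0.20, adjusted p = 0.11, and 0.24, adjusted p = 0.061).

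Mrps12, at the decoding center, rose by 0.57 (adjusted p = 1.2e-05) in CITED against MDSC and by 0.35 (adjusted p = 0.009) against MDSC-NP-Blk, but the first call was lost with the length correction (0.20). The second was kept in 11 of the 12 alternatives, with a lowest log2 fold change of 0.24. Mrpl44, which has a ribonuclease III fold, had -0.23 (adjusted p = 0.044) in CITED against MDSC, a call that did not survive the loss of MDSC replicate 1 (-0.19), 2 (-0.24) or 3 (-0.20) or of CITED replicate 2 (-0.24), 3 (-0.21) or 4 (-0.21). Mrps30, a large-subunit protein despite its name, rose by 0.31 (adjusted p = 0.0051) in CITED against MDSC. Mrps2 had 0.11 (adjusted p = 0.45) and Mrps18c -0.094 (adjusted p = 0.43), neither called. The rises of Mrps18a (0.37) and Mrps18b (0.43) in CITED against MDSC were called, but with the length correction were 0.023 and 0.15 and not called.

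Summed over the 78 members, the normalized counts were 40223, 42119, 39499 and 38679 (MDSC), 48648, 41187, 41109 and 46246 (MDSC-NP-Blk) and 48736, 46121, 43834 and 45720.1 (CITED). All CITED libraries lay above all MDSC libraries in these sums, whereas MDSC-NP-Blk replicates 2 and 3 lay within the range of MDSC. This order depends on the scaling factors. As a share of all counts the members took 0.178% to 0.191% (MDSC), 0.158% to 0.185% (MDSC-NP-Blk) and 0.167% to 0.182% (CITED). The mean share was highest in MDSC. The ratio of large-subunit to small-subunit sums, which does not depend on scaling between libraries, was 2.26 to 2.32 (MDSC), 2.34 to 2.43 (MDSC-NP-Blk) and 2.28 to 2.40 (CITED). MDSC and MDSC-NP-Blk did not overlap in this ratio.

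The cytosolic ribosome is given for comparison. The values for it and for the gene groups that follow are without the correction for transcript length. The part of the length trend in them was not tested. All 80 cytosolic ribosomal protein genes tested were called in CITED against MDSC, 78 higher and 2 lower (Rpl3 at -0.30 and Rpl5 at -0.44), with a median log2 fold change of 0.66. In MDSC-NP-Blk against MDSC 79 were higher (median 0.77), and in CITED against MDSC-NP-Blk 1 was higher and 29 lower (median -0.11). Rps9 (1.12), Rplp2 (1.13) and Fau (1.16) had the lowest p among the rises in CITED. The ratio of cytosolic to mitochondrial ribosomal protein counts within a library was 22.3 to 23.0 (MDSC), 34.0 to 35.6 (MDSC-NP-Blk) and 30.4 to 31.3 (CITED), and no groups overlapped.

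The mRNAs that mitochondrial ribosomes translate were called in the other direction. Of the 13 mitochondrially encoded mRNAs, 9 were lower in CITED against MDSC (median -0.35), among them mt-Nd2 (-0.60) and mt-Nd1 (-0.48), subunits of complex I, and mt-Cytb (-0.35), of complex III. In MDSC-NP-Blk against MDSC 8 were lower and 1 higher, and in CITED against MDSC-NP-Blk 3 were lower. Their ratio to the members within a library was 10.2 to 11.4 in MDSC and 7.91 to 8.76 in CITED. In MDSC-NP-Blk it was 8.40 and 8.45 in replicates 1 and 4, beside the CITED values, and 10.6 and 10.2 in replicates 2 and 3, beside the MDSC values.

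**Figure D4:**
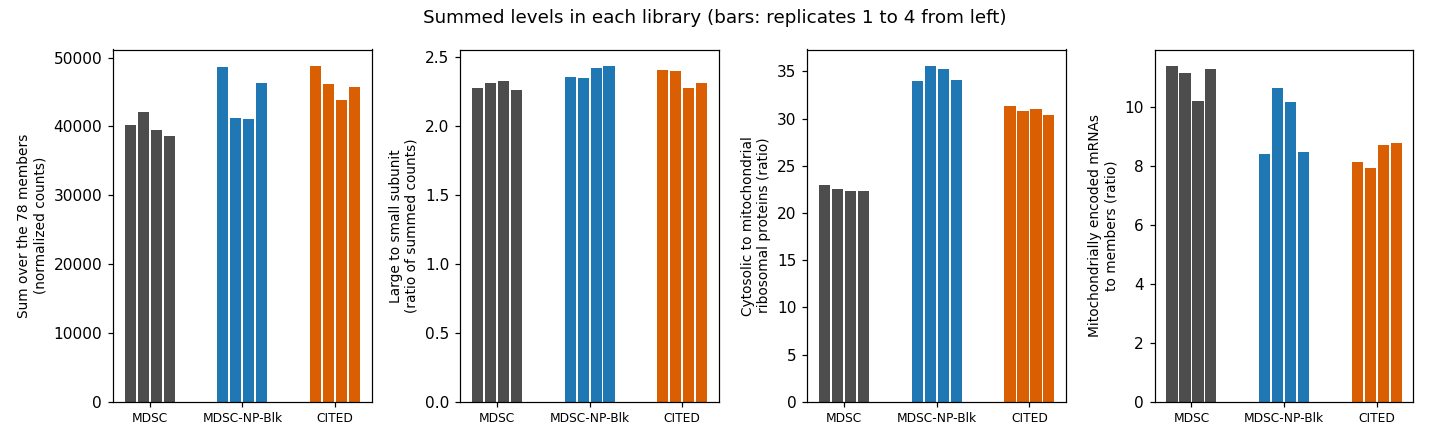
Sums and ratios of sums in each library (bars, replicates 1 to 4 from left within a group, axes from 0): the 78 members in normalized counts, the large to small subunit, the cytosolic to the mitochondrial ribosomal proteins, and the mitochondrially encoded mRNAs to the members. The cytosolic ratio is 22.3 to 23.0 in MDSC against 30.4 to 35.6 in the particle groups, and the MDSC-NP-Blk bars of the last ratio split into replicates 1 and 4 (8.40 and 8.45) and replicates 2 and 3 (10.6 and 10.2).

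The other genes of mitochondrial translation were counted in the same way. Of 5 subunits of the ribosome with other names, 1 rose and 1 fell in CITED against MDSC: Aurkaip1 (0.47), a small-subunit protein, and Ptcd3 (-0.65), a pentatricopeptide repeat protein of the small subunit. Of 17 translation factors 2 rose and 7 fell (median -0.24), with rises of Oxa1l (0.76), which inserts new chains into the inner membrane, and Mrrf (0.39), the recycling factor, and falls including those of Guf1 (-1.02), an elongation factor, Gfm1 (-0.38), the translocase, and Mtif2 (-0.38), an initiation factor. Of 20 aminoacyl-tRNA synthetases 1 rose, Fars2 (0.39), and 9 fell (median -0.24), among them Mars2 (-0.77) and Vars2 (-0.52).

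Of 28 assembly factors 4 rose and 1 fell in CITED against MDSC (median -0.020), with Ddx28 (1.06), a helicase of large-subunit assembly, Mtg2 (0.48), a GTPase, and Mpv17l2 (0.34) leading the rises and Noa1 (-0.35), a GTPase, the only fall. A list of 16 genes for mitochondrial transcription and RNA metabolism also held genes of mitochondrial DNA replication, Polg among them. Of these 16 genes 1 rose (Fastk, 0.27) and 4 fell, including Pnpt1 (-1.07), Elac2 (-0.58) and Polg (-0.29). In MDSC-NP-Blk against MDSC the rises and falls numbered 1 and 2 for the subunits with other names and 2 and 6 for the factors. They were 2 and 12 for the synthetases, 3 and 7 for the assembly factors and 1 and 5 for the transcription and RNA list. In CITED against MDSC-NP-Blk 1 translation factor rose, 2 synthetases fell, and 4 assembly factors rose and 1 fell. Of the transcription and RNA list 2 genes rose and 1 fell there. The mitochondrial ribosomal RNAs were not analysed here.

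**Figure D5:**
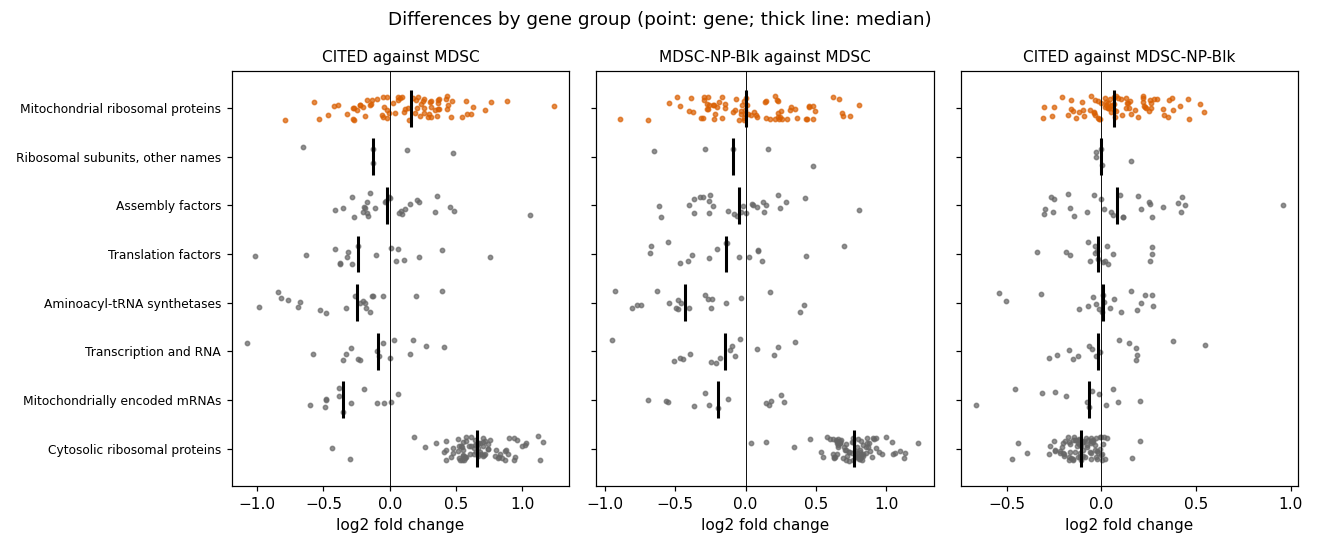
Log2 fold change of each gene (points) and the median (thick line) of 8 groups of genes in the 3 comparisons. The median of the mitochondrial ribosomal proteins is 0.16, -0.0011 and 0.068 from left to right, that of the cytosolic ribosomal proteins 0.66, 0.77 and -0.11, and that of the mitochondrially encoded mRNAs -0.35, -0.19 and -0.064.

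Of 10 regulators of mitochondrial gene expression 3 rose and 3 fell in CITED against MDSC. The rises were Esrra (0.63), a nuclear receptor, Nrf1 (0.31), the factor that binds the NRF1 motif, and Gabpb1 (0.20), a subunit of GABP. The falls were Gabpa (-0.34), the DNA-binding subunit of GABP, Myc (-0.35) and Ppargc1b (-0.90), a coactivator.

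The motifs of the member promoters were also counted by the direction of the calls. Of 28 members that rose in CITED against MDSC and had a window, 17 (60.7%) held the ETS and GABP motif, as did 5 of 10 that fell (50%) and 4 of 31 not called (12.9%). In MDSC-NP-Blk against MDSC the counts were 10 of 19, 3 of 13 and 13 of 37. The NRF1 motif was held by 9 of 19 members that rose in MDSC-NP-Blk (47.4%), 1 of 13 that fell and 3 of 37 not called (8.11%), and by 7 of 28, 2 of 10 and 4 of 31 in CITED against MDSC. In the same order, the YY1 motif was held by 1 of 19, 3 of 13 and 8 of 37 in MDSC-NP-Blk against MDSC. In CITED against MDSC it was held by 4 of 28, 2 of 10 and 6 of 31. There the E box had 1 of 28, 0 of 10 and 4 of 31, and the CCAAT box 10 of 28, 3 of 10 and 14 of 31. In CITED against MDSC-NP-Blk the NRF1 motif had 0 of 10, 1 of 3 and 12 of 56, and the ETS and GABP motif 5, 1 and 20. These are counts of letters in windows, and their relation to the calls was not tested.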

How the data were processed

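Gene-level counts of 12 poly(A)-enriched mouse libraries (3 groups of 4) were analysed. Per the study's methods the authors quantified paired-end reads with Salmon (1.4.0) against GENCODE transcripts of GRCm39 and imported them to genes in R (4.3.2); the deposited table holds whole-number counts, unnormalized, and the GENCODE release and strand setting are not given in the sources used here. From these counts 1 row without a symbol (0 counts) was dropped, symbols with at least 2 counts over all libraries were kept, and edgeR (4.0.16, R 4.3.3) was fitted with trimmed-mean factors and its quasi-likelihood test over all 12 libraries with group as the only term, Benjamini-Hochberg adjustment over the 17676 genes tested and a threshold of 0.05. Normalized counts and log2 fold changes follow these factors (MDSC 1.12 to 1.15, MDSC-NP-Blk 0.94 to 0.95, CITED 0.92 to 0.94). Each SE was taken as the log2 difference over the root of F. Transcript lengths, GC content, exon overlaps and shared 31-base words came from GENCODE (GRCm39), with annotation for 17648 of the genes tested and all 78 members. Levels per kilobase use the median length of a gene's coding transcripts. DESeq2 (1.42.0) was an alternative. The fits and the length correction were tested on simulated data.

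Members and gene lists were chosen with earlier results of these data known. Named members were the 6 largest called changes in each direction with a mean normalized count above 50, those past an absolute log2 fold change of 1, called members opposite to most, members of known role and the extremes of level; from each other list, up to 3 genes of lowest p per direction. Replicate numbers did not pair the samples (correlations of deviations between same-numbered libraries of -0.060 to 0.14). The use of MDSC-NP-Blk replicates in pairs was chosen after seeing the data.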

Additional observations from a re-analysis of the deposited data

Results flagged for a closer look

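Among 78 sets of 4 libraries examined for a library far from the other 3, 3 were flagged, where chance flags about 1 in 20. All 3 lay in MDSC-NP-Blk. The sets covered 22 of the members and not the whole family. Mrpl49 had 377.55 normalized counts in replicate 1 against 289.62 to 299.17 in the others. Mrpl3 had 550.28 in replicate 2 against 453.45 to 465.56. Mrps18a had 292.92 in replicate 3 against 366.07 to 375.39.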

How the results depend on the processing

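The members' balance against MDSC depended on how transcript length was treated, and the comparison between the particle groups on the choice of MDSC-NP-Blk libraries. Scaling by library totals alone shifted the median of all genes tested by -0.27 (CITED) and -0.26 (MDSC-NP-Blk) and gave 10 members higher and 32 lower (median -0.11) in CITED against MDSC and 9 and 40 (median -0.26, 1 past the fold) in MDSC-NP-Blk against MDSC. All genes moved with this scaling, with 12.4% called higher and 35.8% lower in the first comparison and 9.4% and 34.5% in the second. With the length correction the counts were 17 and 24 (median -0.022, 2 past the fold) and 13 and 30 (median -0.14, 1 past the fold). Over all genes tested 21% and 23.1% were then called in the first comparison and 18.7% and 19.4% in the second. With length and GC corrected they were 17 and 23 (median -0.081, 2 past the fold), and 28 lower (median -0.15, 1 past the fold) in MDSC-NP-Blk against MDSC. The trend was removed within each library, so that part of a group difference that follows length is removed with it, and the cause of the trend was not tested.

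The replicate block, with numbers that share no stated origin, gave 36 higher and 12 lower, 22 and 17, and 16 and 4 in the 3 comparisons and moved no count by over 1.5 times. Only 3 of 12 same-numbered correlations were the best for their number. With the block and the length correction together the counts were 18 and 25 (median -0.024, 2 past the fold), and 31 lower (median -0.14, 1 past the fold) in MDSC-NP-Blk against MDSC.

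With MDSC-NP-Blk replicates 1 and 4 only, 9 members were lower in MDSC-NP-Blk against MDSC (median 0.11), and 3 higher and 7 lower in CITED against MDSC-NP-Blk. With replicates 2 and 3 only, 13 were higher in MDSC-NP-Blk against MDSC, and 23 higher and 0 lower (median 0.17) in CITED against MDSC-NP-Blk. With each library left out in turn, CITED against MDSC-NP-Blk gave 8 to 17 higher and 2 to 4 lower, the extreme without MDSC-NP-Blk replicate 1. All other main counts and medians moved by less than 1.5 times or the spread between replicates under the alternatives run.

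Of the called rises, 13 of 33 in CITED against MDSC, 6 of 22 in MDSC-NP-Blk against MDSC and 0 of 11 in CITED against MDSC-NP-Blk changed sign under at least 1 of the 12 alternatives, and no called fall did. Among members named for role, or for size in the same comparison, the signs that turned in CITED against MDSC were those of Mrps18a (-0.085) and Mrps18c (0.029) with length and GC corrected and Mrps2 (-0.16) with library totals. The called rises of Mrpl27 (lowest value -0.047) and Mrps15 (lowest value -0.028), named for size in CITED against MDSC-NP-Blk, also turned there. In MDSC-NP-Blk against MDSC, library totals gave -0.056 for Mrps30 and -0.041 for Mrps12, which had -0.11 with the length correction, -0.22 with length and GC and -0.11 with the block and length; with upper-quartile scaling the log2 fold change of Mrps18a, MDSC-NP-Blk against MDSC, was 0.00462 and that of Mrpl11 was 0.0076; and replicates 1 and 4 only gave 0.056 for Mrps18a, 0.10 for Mrpl44 and 0.063 for Mrpl11. In CITED against MDSC-NP-Blk, replicates 2 and 3 only gave 0.17 for Mrpl58 and 0.080 for Mrps36, and replicates 1 and 4 only gave -0.022 for Mrps30. With libraries left out in turn, the ranges in MDSC-NP-Blk against MDSC were -0.045 to 0.068 for Mrps18a, -0.088 to 0.068 for Mrps18b, -0.11 to 0.012 for Mrpl44 and -0.052 to 0.069 for Mrpl11, and in CITED against MDSC-NP-Blk -0.11 to 0.089 for Mrpl58 and -0.16 to 0.062 for Mrps36. At this depth every member but Mrpl23 had over 100 counts in at least 1 library.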
